A study of Arabidopsis thaliana with 2 samples.

Results

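Chlorophyll is made in the chloroplast by enzymes that are encoded in the nucleus, and 10 genes of this pathway were examined here on membrane-bound polysomes (MBPs), the polysomes recovered with microsomal membranes. The genes were found in the tables by their locus identifiers: HEMA1, GSA1, GUN4, CHLH, CHLI1, CHLD, CHLM, CRD1, PORB and PORC, which are 10 of the 25224 genes in the deposited exon table. All 10 had rows for the exon, the 5' UTR and the 3' UTR. The study asked which transcripts MBPs carry and which parts of them ribosomes cover. It sequenced 2 libraries from wild-type Arabidopsis seedlings, 13 days old, raised on Murashige and Skoog plates with 16 h of light and 8 h of dark. For MBP ribo-seq, RNase I digestion left monosomes, which were taken from a sucrose gradient, and the short RNA fragments held inside their ribosomes (footprints) were sequenced. For MBP mRNA-seq, the RNA of the MBPs was sequenced by regular RNA-seq. Both libraries had the same genotype, age and growth conditions, and neither carried a mutation or a treatment.

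Chlorophyll synthesis starts from glutamyl-tRNA, which glutamyl-tRNA reductase and an aminotransferase turn into 5-aminolevulinic acid, the precursor of all plant tetrapyrroles. Protoporphyrin IX is the branch point: ferrochelatase directs it to haem, and Mg chelatase, built of the subunits H, I and D and stimulated by GUN4, directs it to chlorophyll. A methyltransferase and a cyclase then close the additional ring, and protochlorophyllide oxidoreductase (POR) makes chlorophyllide in a step that needs light. The enzymes are made on cytosolic ribosomes as precursors with a transit peptide and are imported into the chloroplast. Intermediates of the pathway are phototoxic when they are free, and the pathway is known for tight control in green tissue.

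There was 1 library per assay, so no value below has a replicate check. Reads copied by PCR are not independent molecules, and the intervals given here cover nothing beyond counting error. The depth was 38438721 reads in MBP ribo-seq and 66958225 reads in MBP mRNA-seq. The members were deeply covered, with 2285 to 17505 coding reads per gene in ribo-seq and 4971 to 49265 in mRNA-seq. The green tissue markers RBCS1A, RCA and CA1 stood at 5248 to 9535 RPM (reads of the feature scaled to a common library depth) in ribo-seq and 5526 to 13066 RPM in mRNA-seq. The 3 root hair markers reached at most 1.30 RPM in ribo-seq, against 0.329 RPM in mRNA-seq. The flower organ markers AP3 and AG reached at most 0.0520 RPM in ribo-seq and, with few reads, 0.119 in mRNA-seq. The seed storage marker CRA1 stood above these, at 3.75 RPM from 144 ribo-seq reads and 7.35 RPM from 492 mRNA-seq reads. SESA1, also a seed storage marker, was low, at 0.156 RPM (6 reads) for ribo-seq and 0.0597 RPM (4 reads) for mRNA-seq. In whole seedlings, fewer cells that make chlorophyll and less RNA per cell cannot be told apart. The 2 libraries also differ in RNase digestion and size selection, and these cannot be told apart from ribosome occupancy.

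Several members belong to small gene families, and short footprints can be assigned to 1 copy only where the copies differ. The 30-base windows at the longest identical run of each pair illustrate this for the POR and CHLI copies. They are given in the coding direction, 5′ to 3′, from the TAIR10.1 reference, with the bases that differ within a pair in capitals.
PORB in exon 3, chr4:13726620-13726649, plus strand: aCggTgcaaaggcttacaaagacagTaaag
PORC in exon 4, chr1:908772-908801, plus strand: aTggAgcaaaggcttacaaagacagCaaag
PORB from its start codon, chr4:13725648-13725677, plus strand: atggcccttcaagctgcttctttggtctcc
PORA from its start codon, chr5:21992744-21992773, minus strand: atggcccttcaagctgcttctttggtctcc
CHLI1 in exon 3, chr4:10202500-10202529, minus strand: gctaaagctaatagagggattctttatgtt
CHLI2 in exon 3, chr5:18628933-18628962, plus strand: gctaaagctaatagagggattctttatgtt

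The PORB and PORC windows at their longest identical run differed at 3 bases, while the PORB and PORA windows, and those of CHLI1 and CHLI2, were identical. Coding identity was 73.5% between PORB and PORC, with a longest identical run of 20 bases. It was 83.3% between PORB and PORA and 81.8% between CHLI1 and CHLI2, each with a longest run of 44 bases. Such stretches were a small part of each gene. Of all 28-base words of a member's coding sequence, at most 2.06% (HEMA1) were also found elsewhere in the genome, and 5 members, GUN4, CHLH, CHLM, CRD1 and PORC, had none.

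The members stood high on MBPs in both libraries, from CRD1 at the top to HEMA1 at the bottom. Neither library was of total RNA or free polysomes, so a high level on MBPs cannot be told apart from a high level in the cell. Levels are given as coding RPM per kb, so that genes of different length can be compared, with exact Poisson 95% intervals. The median of all genes past the filter was 5.53 RPM per kb in ribo-seq and 13.9 RPM per kb in mRNA-seq. The highest member exceeded the lowest 10.2-fold in ribo-seq and 6.56-fold in mRNA-seq.

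The genes for 5-aminolevulinic acid synthesis were among the lower members, with HEMA1 lowest of all. HEMA1 (AT1G58290, chromosome 1, 21623700 to 21626402, 3 exons) encodes the main light-regulated glutamyl-tRNA reductase and had 36.4 RPM per kb (34.9 to 37.9) in ribo-seq and 87.2 RPM per kb (85.5 to 89.0) in mRNA-seq. GSA1 (AT5G63570, chromosome 5, 25451800 to 25453845, 3 exons), one of a pair of glutamate semialdehyde aminotransferase genes, had 73.9 RPM per kb (71.6 to 76.2) in ribo-seq and 98.8 RPM per kb (96.8 to 100.8) in mRNA-seq. GSA1 thus exceeded HEMA1 2.03-fold (1.93 to 2.14) in footprints and 1.13-fold (1.10 to 1.17) in mRNA.

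Among the Mg chelatase genes, CHLI1 had by far the highest footprint level. CHLI1 (AT4G18480, chromosome 4, 10201672 to 10203469, 3 exons), an ATPase subunit, had 289 RPM per kb (284 to 294) in ribo-seq and 308 RPM per kb (305 to 312) in mRNA-seq. CHLH, also known as GUN5 (AT5G13630, chromosome 5, 4387307 to 4392429, 5 exons), the large subunit that binds the porphyrin, had 75.5 RPM per kb (74.2 to 76.9) in ribo-seq and 177 RPM per kb (176 to 179) in mRNA-seq. CHLD (AT1G08520, chromosome 1, 2696381 to 2701022, 15 exons), the subunit that assembles with CHLI, had 59.2 RPM per kb (57.6 to 60.9) in ribo-seq and 123 RPM per kb (121 to 125) in mRNA-seq.

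CHLI1 stood further from the other subunits in footprints than in mRNA. It exceeded CHLH 3.83-fold (3.73 to 3.92) in ribo-seq and 1.74-fold (1.71 to 1.76) in mRNA-seq. It exceeded CHLD 4.88-fold (4.72 to 5.04) in ribo-seq and 2.50-fold (2.46 to 2.55) in mRNA-seq. The intervals of the 2 libraries did not overlap for either pair. CHLH exceeded CHLD 1.27-fold (1.23 to 1.32) in ribo-seq and 1.44-fold (1.42 to 1.46) in mRNA-seq, so these subunits were closer in footprints. The subunits differ in coding length (1275 bp for CHLI1, 4146 bp for CHLH and 2283 bp for CHLD), and these comparisons make no allowance for it.

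GUN4 (AT3G59400, chromosome 3, 21948501 to 21949796), a gene of 1 exon whose protein binds porphyrins and stimulates Mg chelatase, had 85.4 RPM per kb (82.2 to 88.7) in ribo-seq and 93.0 RPM per kb (90.5 to 95.7) in mRNA-seq. Set against CHLH, it changed place between the libraries, at 1.13 times CHLH (1.08 to 1.18) in ribo-seq and 0.524 times CHLH (0.509 to 0.540) in mRNA-seq. Coding length, which moved with such differences across all genes and is described with the ratios, is 798 bp for GUN4 and 4146 bp for CHLH. The coding sequence of GUN4 overlaps the annotated span of AT3G59410 on the other strand. Which part of AT3G59410 this is was not examined. How strands were counted is not given in the sources used here, so reads of AT3G59410 could be included.

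CRD1 had the highest level of all members in both libraries. CRD1 (AT3G56940, chromosome 3, 21076505 to 21078443, 5 exons), a subunit of the cyclase that forms the additional ring, had 370.2 RPM per kb (365 to 376) in ribo-seq and 572 RPM per kb (567 to 577) in mRNA-seq. Its coding sequence overlaps the annotated span of AT3G08795 on the other strand, with the same limits as for GUN4. CHLM (AT4G25080, chromosome 4, 12876822 to 12878703, 3 exons), the methyltransferase that acts just before the cyclase, had 118 RPM per kb (114 to 122) in ribo-seq and 311 RPM per kb (306 to 315) in mRNA-seq. CHLM stood next to CRD1 in mRNA, with an interval that overlapped that of CHLI1, but lower than CHLI1, PORB and PORC in footprints.

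The POR genes PORB and PORC stood next to each other in footprints, below CRD1 and CHLI1. PORB (AT4G27440, chromosome 4, 13725546 to 13727440, 4 exons) had 228 RPM per kb (224 to 233) in ribo-seq and 266 RPM per kb (262 to 269.6) in mRNA-seq. PORC (AT1G03630, chromosome 1, 907523 to 909650, 5 exons), which is known as the isoform of mature green tissue under strong light, had 164 RPM per kb (161 to 168) in ribo-seq and 140.2 RPM per kb (138 to 143) in mRNA-seq. PORB exceeded PORC 1.39-fold (1.35 to 1.43) in footprints and 1.90-fold (1.85 to 1.94) in mRNA. Of the 10 members, PORC was the only one with more RPM in ribo-seq than in mRNA-seq at the deposited scaling, on which this depends.

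In footprints the members thus ranked CRD1, CHLI1, PORB, PORC, CHLM, GUN4, CHLH, GSA1, CHLD and HEMA1, and of the neighbours in this order only CHLH and GSA1 had overlapping intervals. In mRNA the order was CRD1, CHLM, CHLI1, PORB, CHLH, PORC, CHLD, GSA1, GUN4 and HEMA1. Here the intervals of CHLM and CHLI1 overlapped.

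**Figure D1:**
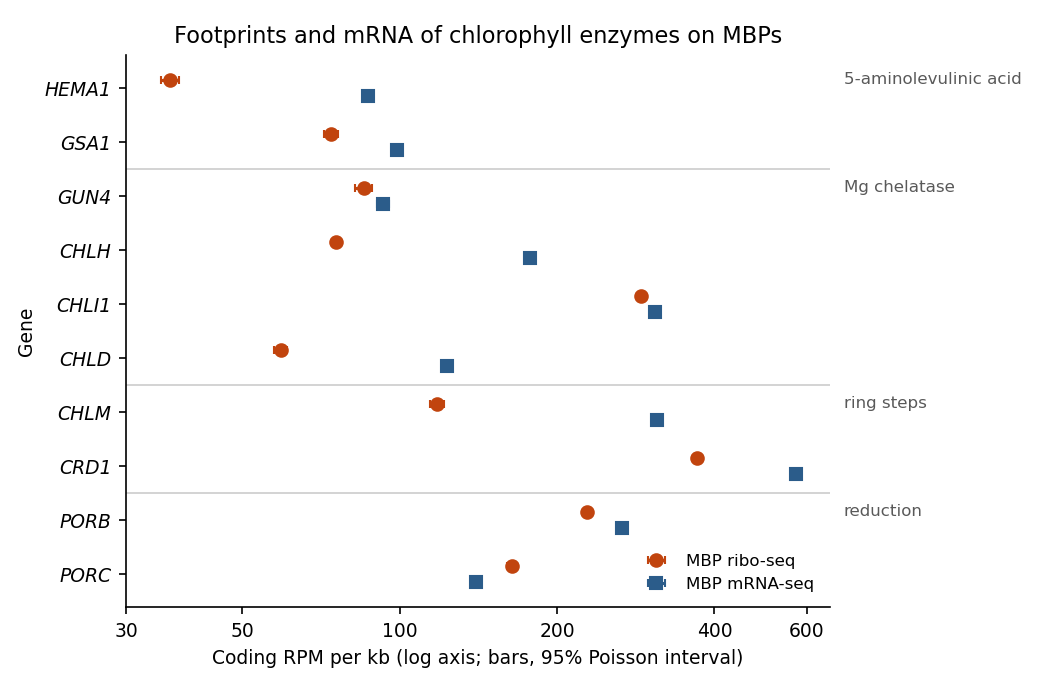
Coding RPM per kb of each member (log axis), with MBP ribo-seq as circles, MBP mRNA-seq as squares, and exact Poisson 95% intervals as bars where they are wider than the symbol; grey lines separate the stages of the pathway. At the deposited scaling, PORC is the only gene whose circle lies right of its square, and CHLM and CHLH have widely separated symbols.

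To ask how densely the transcripts were occupied, ribo-seq was set against mRNA-seq for each gene. The ratio here is log2 of the coding RPM in ribo-seq plus 1 over that in mRNA-seq plus 1. Its level depends on how each library was scaled, so it is read against the median of the 16879 genes with a mean of at least 1 RPM, which was -0.99. Linear ratios of RPM are given as well, with exact Clopper-Pearson 95% intervals. The median gene had a linear ratio of 0.446.

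Of the 10 members, 6 lay above the median gene and 4 below it, where 50.0% of all genes lie above it by construction. CHLD was within 0.06 of the median gene and changed side in 4 of 9 alternative settings. The members' median was 0.47 above the median gene on the log2 scale, but 0.14 with 5 RPM in place of 1 RPM added to each value and 0.071 with no filter on low values. More than 2-fold above the median gene was 1 member, PORC, against a background of 5.59% of all genes, and more than 2-fold below it were 0 members, against 11.8%. With 0.1 RPM added in place of 1 RPM, CHLI1 and GUN4 also passed the limit, which made 3 members. With more RPM in ribo-seq than in mRNA-seq there was again PORC alone, against 5.80% of all genes. At a 4-fold limit 0 members were past it in either direction, against 0.432% of all genes above and 1.72% below. A binomial test of the reads against the depths of the 2 libraries placed 1 member, PORC, higher in ribo-seq, against 3.53% of all genes, and 9 lower, against 90.1%. That test compares these libraries and not conditions.

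PORC had 198 RPM (7618 reads) in ribo-seq, against 169 RPM (11322 reads) in mRNA-seq. Its linear ratio was 1.17 (1.14 to 1.21), and its log2 ratio lay 1.22 above the median gene, at percentile 97.8 of all genes. It stayed within 2-fold of the median gene, at 0.87, with 5 RPM in place of 1 RPM added to each value, and at 0.82 when no filter on low values was used. PORB, which catalyses the same step, had 275 RPM in ribo-seq, against 321 RPM in mRNA-seq, a linear ratio of 0.859 (0.839 to 0.879). PORB lay 0.77 above the median gene, and its interval did not reach that of PORC.

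CHLI1 and GUN4 followed PORC, and their intervals overlapped. CHLI1 had 368 RPM in ribo-seq, against 393 RPM in mRNA-seq, a linear ratio of 0.937 (0.918 to 0.956). GUN4 had 68.2 RPM in ribo-seq, against 74.2 RPM in mRNA-seq, a linear ratio of 0.918 (0.875 to 0.963). They lay 0.90 and 0.87 above the median gene on the log2 scale, at percentiles 92.1 and 91.3. The interval of GUN4 also overlapped that of PORB.

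GSA1 and CRD1 followed PORB. GSA1 had 105 RPM in ribo-seq, against 141 RPM in mRNA-seq, a linear ratio of 0.748 (0.721 to 0.776), which was 0.57 above the median gene on the log2 scale. CRD1 had 455 RPM in ribo-seq, against 703 RPM in mRNA-seq, a linear ratio of 0.648 (0.636 to 0.659), which was 0.36 above it, but at -0.034 with no filter on low values. The most abundant member was thus not the one with the highest ratio.

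The log2 ratios of the other Mg chelatase subunits, HEMA1 and CHLM were below that of the median gene, although for CHLD this depended on the setting. CHLD had 135 RPM in ribo-seq, against 281 RPM in mRNA-seq, a linear ratio of 0.481 (0.466 to 0.496), at -0.06. Its linear ratio, which has no pseudocount, was above the 0.446 of the median gene, and its log2 ratio was above the median gene with 0.1 RPM added (0.088), with the libraries rescaled (0.063), with UTR reads (0.085) and against genes of similar length (0.35). CHLH had 313 RPM in ribo-seq, against 736 RPM in mRNA-seq, a linear ratio of 0.426 (0.417 to 0.434), at -0.24. The subunits of 1 enzyme thus spanned the values from -0.24 for CHLH to 0.90 for CHLI1.

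HEMA1 had 59.4 RPM in ribo-seq, against 142 RPM in mRNA-seq, a linear ratio of 0.418 (0.399 to 0.437) that overlapped the interval of CHLH, and lay at -0.26. CHLM was the lowest member, with 111 RPM in ribo-seq, against 292 RPM in mRNA-seq, a linear ratio of 0.380 (0.367 to 0.392), at -0.40 and percentile 30.6. From PORC to CHLM the linear ratios of the members differed 3.09-fold.

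Coding length moved with this ratio across all genes. All genes were divided into 10 classes of equal size by coding length. The median of the shortest class was 0.51 above that of all genes, and the median of the longest class stood at -0.66. CHLH (4146 bp) and CHLD (2283 bp) were the longest members and lay in the 2 longest classes. Against the median of their own class, they were not low but high, at 0.42 and 0.35. HEMA1 was then at -0.03 and CHLM at -0.59, so that 8 members lay above the median of their class and 2 below it, with a median of 0.50. PORC remained highest at 1.17, and CHLI1 followed at 0.95. GUN4, the shortest member, was then at 0.58, below PORB at 0.73 and GSA1 at 0.70. The gap between CHLI1 and CHLH was smaller on this scale, GUN4 and CHLH were closer to each other, and CHLH stood above CHLD.

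**Figure D2:**
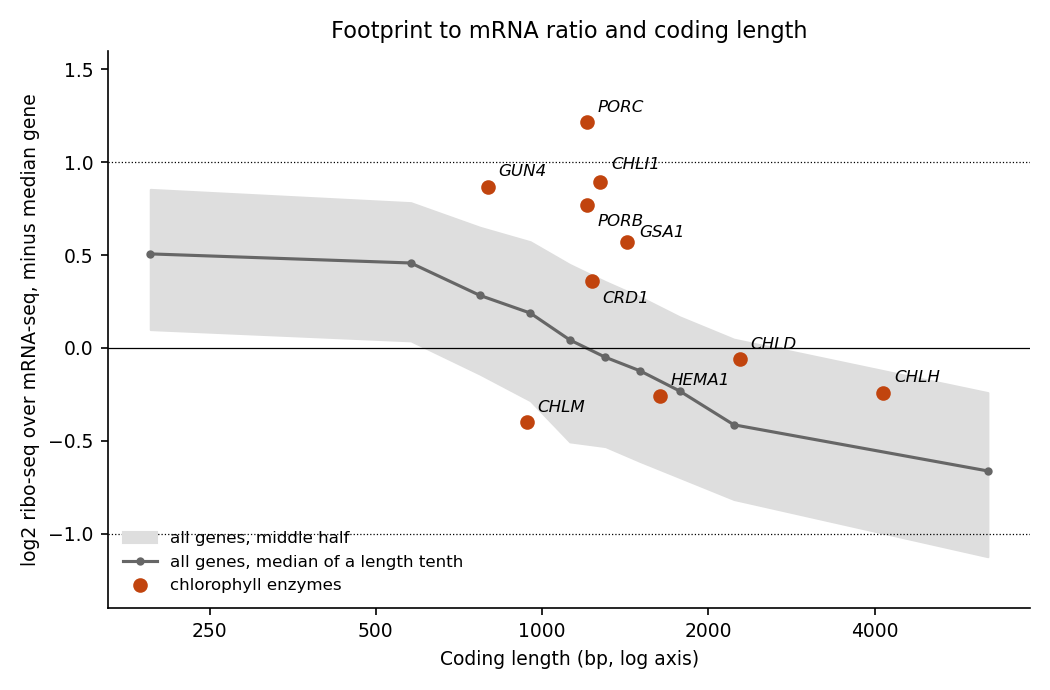
Log2 ratio of MBP ribo-seq over MBP mRNA-seq, minus that of the median gene, against coding length (log axis), with the members as labelled points. The line joins the medians of all genes in 10 classes of coding length, drawn at their middle lengths, the grey band holds the middle 50.0% of genes, and dotted lines mark a 2-fold difference; PORC lies above the upper dotted line, and HEMA1 and CHLM are the members below the line of medians.

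The gene copies of the members were present on MBPs at very different levels. Among the glutamyl-tRNA reductase genes, HEMA1 had the highest level in both libraries. HEMA2 (AT1G09940), which is known from roots and non-photosynthetic tissue, had 6.09 RPM per kb in ribo-seq and 21.4 RPM per kb in mRNA-seq. HEMA3 (AT2G31250) had 20 footprint reads and 78 mRNA reads, at 0.330 and 0.740 RPM per kb. HEMA1 held 85.0% of the summed level of the 3 genes in ribo-seq and 79.7% in mRNA-seq. HEMA2 had a linear ratio of 0.284 (0.254 to 0.317), lower than that of HEMA1.

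For the aminotransferase, GSA2 (AT3G48730) was the more abundant copy, with 121 RPM per kb in ribo-seq and 141 RPM per kb in mRNA-seq. GSA1 had 0.611 times the level of GSA2 (0.588 to 0.636) in ribo-seq and 0.700 times (0.682 to 0.719) in mRNA-seq. The linear ratio of GSA2 was 0.856 (0.831 to 0.882). These copies share 83.5% of their coding bases.

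CHLI2 (AT5G45930) is the minor copy of subunit I. Of the copies outside the members, only CHLI2 lay more than 2-fold above the median gene, against 5.59% of all genes. It had 65.0 RPM per kb in ribo-seq and 57.8 RPM per kb in mRNA-seq, with a linear ratio of 1.13 (1.08 to 1.18) and a log2 ratio 1.16 above the median gene. Its coding sequence overlaps the annotated span of AT5G45940 on the other strand. CHLI1 exceeded CHLI2 4.45-fold (4.28 to 4.62) in ribo-seq and 5.34-fold (5.18 to 5.50) in mRNA-seq, so CHLI1 held 81.6% of the summed level in ribo-seq and 84.2% in mRNA-seq.

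PORA (AT5G54190), which is known from dark-grown seedlings and declines in the light, was barely present in these light-grown seedlings. It had 76 reads in ribo-seq and 229 in mRNA-seq, or 1.62 and 2.81 RPM per kb. PORB exceeded it 141-fold (112 to 179) in footprints and 94.7-fold (83.2 to 108) in mRNA. PORB held 57.9% of the summed POR level in ribo-seq and 65.0% in mRNA-seq, and PORC held 41.7% in ribo-seq and 34.3% in mRNA-seq. PORB reads from the stretches identical to PORA could have been counted for PORA, so the level of PORA is uncertain.

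**Figure D3:**
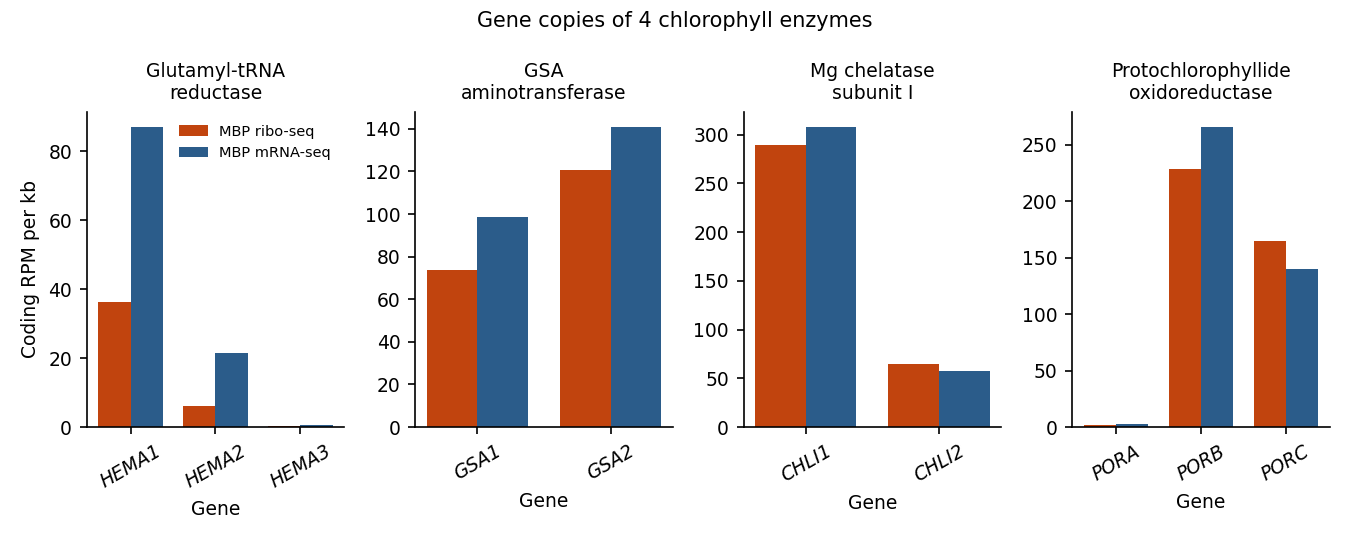
Coding RPM per kb of the copies of 4 enzymes, with MBP ribo-seq as the left bar and MBP mRNA-seq as the right bar of each gene and 1 library per bar; each panel has its own axis from 0. PORA at 1.62 and 2.81 RPM per kb and HEMA3 at 0.330 and 0.740 RPM per kb are barely visible beside PORB and HEMA1, and PORC and CHLI2 have the taller bar in ribo-seq.

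Of the members, 5 had 1 annotated isoform. For CRD1 and CHLM, the annotation also holds an isoform that starts further into the coding sequence. The beginning of the coding sequence was therefore approximated by the reads counted for the longer isoform and not for the shorter isoform. Reads across the inner end of this segment can be among them. The starting 231 bp of CRD1 held 2020 footprint reads and 6610 mRNA reads. The linear ratio was 0.532 (0.506 to 0.560) in this segment, against 0.666 (0.654 to 0.679) in the rest of the coding sequence. The starting 201 bp of CHLM held 836 footprint reads and 4039 mRNA reads, with a linear ratio of 0.361 (0.334 to 0.389), against 0.385 (0.370 to 0.399) in the rest. The lower ratio at the start of CRD1 was beyond the counting error, and that of CHLM was not. The 5' UTR of the shorter isoform held fewer reads than the segment in both genes. It held 1515 footprint reads and 5867 mRNA reads for CRD1, and 653 footprint reads and 2756 mRNA reads for CHLM. The part of reads across the segment's end in the lower ratios was not tested. Footprints were counted for the longer isoform in both genes, and the values do not show how much of the RNA is of either isoform.

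To ask where on the transcripts the ribosomes were, the reads of each member were divided among coding sequence and UTRs, with Wilson 95% intervals for the shares. Over all members, the 5' UTR held 235 of 80577 reads in ribo-seq, or 0.292% (0.257 to 0.331), and 5168 of 241464 reads in mRNA-seq, or 2.14% (2.08 to 2.20). The 3' UTR held 23 reads in ribo-seq, or 0.0285% (0.0190 to 0.0428), and 18502 in mRNA-seq, or 7.66% (7.56 to 7.77). The shares were lower in ribo-seq for all 10 members in both UTRs. This is also the case for most genes, with 89.1% of genes in the 5' UTR and 99.8% in the 3' UTR, counted over genes with at least 30 mRNA-seq reads there. CHLI1, CHLD, CHLM, CRD1, PORB and PORC overlap the annotated span of another gene outside their coding sequence. Whether these overlaps lie in a UTR was not examined, so UTR reads could include reads of the other gene.

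The 3' UTRs of the members were nearly empty of footprints. GSA1 and CHLH had 0 footprint reads in the 3' UTR, which allows shares of up to 0.0739% and 0.0248% if up to 3 reads are taken as compatible with 0 (Wilson upper limits 0.0946% and 0.0317%), while 12.9% and 3.07% of their mRNA reads lay there. PORB had the most, with 9 reads. In all 10 members the 3' UTR share was more than 10 times lower in ribo-seq, as in 97.1% of all genes.

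The 5' UTRs differed more among the members. By the observed shares, 5 members, GSA1, GUN4, CHLM, CRD1 and PORC, were more than 10 times lower in ribo-seq, against 27.6% of all genes. The upper limits for GUN4 and for GSA1 (0.485% in ribo-seq, against 3.35% in mRNA-seq) do not secure a 10-fold difference. GUN4 had 0 of 2622 footprint reads in its 5' UTR, which allows a share of up to 0.114% by the same limit of 3 reads (Wilson upper limit 0.146%), against 1.28% (1.01 to 1.62) of its mRNA reads. CHLM had 3 of 4262, or 0.0704% (0.0239 to 0.207), against 2.30% (2.11 to 2.50).

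At the other end, HEMA1 had the highest 5' UTR share in footprints, with 30 of 2317 reads or 1.29% (0.908 to 1.84), against 3.69% (3.36 to 4.05) in mRNA-seq. CHLH had 60 of 12096 footprint reads there, or 0.496% (0.386 to 0.638), against 1.19% (1.10 to 1.28). PORB had 68 of 10666 footprint reads there, or 0.638% (0.503 to 0.807), against 3.68% (3.46 to 3.92). The share in ribo-seq was 0.351 times that in mRNA-seq for HEMA1, 0.418 times for CHLH and 0.173 times for PORB.

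Upstream start codons were counted as a description of the 5' UTRs. Searched on the coding strand for the letters ATG in any frame, the annotated 5' UTR held 3 in HEMA1 (351 bases) and 4 in CHLH (347 bases). CHLD and CHLM had 2 each, CHLI1 and PORC 1 each, and GSA1, GUN4, CRD1 and PORB had 0. At least 1 was found in 58.8% of all genes with an annotated 5' UTR. In raw footprint shares, CHLM with 2 was nearly the lowest, and PORB with 0 had an interval that overlapped that of CHLH with 4. By the share in ribo-seq over that in mRNA-seq, CHLH with 4, HEMA1 with 3 and CHLD with 2 were highest. They stood at 0.418, 0.351 and 0.217, where CHLD had 5 footprint reads. PORB with 0 followed at 0.173, and CHLM with 2 was at 0.031, lower than all but GUN4 with 0. HEMA1 and CHLH have the longest 5' UTRs of the members, and the part of length or of start codons in the shares was not tested. The 5' UTRs are those of TAIR10.1 and may differ in length from those used for the deposited values.

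**Figure D4:**
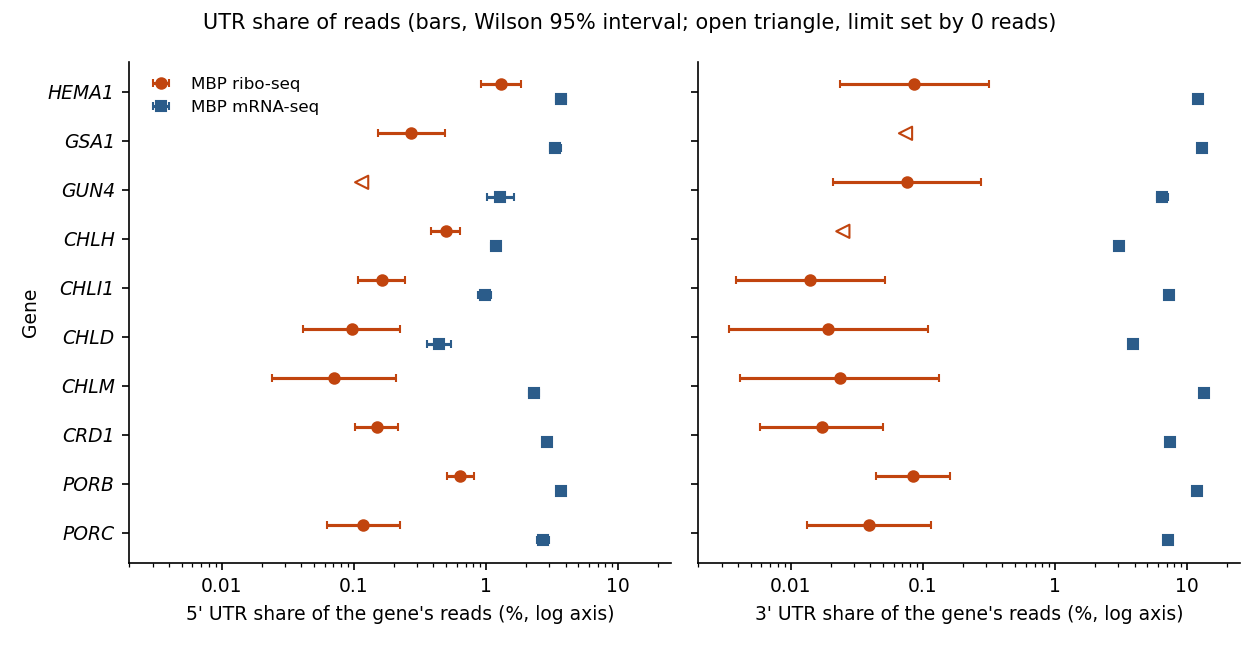
Share of each member's reads in the 5' UTR (left) and the 3' UTR (right), in percent on a log axis, with MBP ribo-seq as circles, MBP mRNA-seq as squares and Wilson 95% intervals as bars; an open triangle marks the limit that 0 reads allow. Every circle or triangle lies left of its square, and the gap is narrowest for the 5' UTR of CHLH and HEMA1.

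The other genes of the pathway were taken from a list of 16 further steps. Of these, 15 passed the filter on low values, of which 12 lay above the median gene and 3 below it, with a median of 0.22. The highest was HEMC, porphobilinogen deaminase, with 251 RPM in ribo-seq, against 241 RPM in mRNA-seq, at 1.05. It was the only one past 2-fold, against 5.59% of all genes above by that much. The lowest was HEMF2, a copy of coproporphyrinogen oxidase, with 2.63 RPM in ribo-seq, against 9.80 RPM in mRNA-seq, at -0.58. The members' median of 0.47 was above that of these steps, and the ranges of both lists overlapped widely.

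Of 3 regulators or partners of the pathway enzymes, 2 lay above the median gene and 1 below it, with a median of 0.51. FLU, which holds back 5-aminolevulinic acid synthesis in the dark, had 38.5 RPM in ribo-seq, against 113 RPM in mRNA-seq, at -0.54. GBP, which binds glutamyl-tRNA reductase, had 58.3 RPM in ribo-seq, against 74.6 RPM in mRNA-seq, at 0.64.

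In the list of 9 genes of the haem, sirohaem and bilin branches, which use the same precursors, 7 lay above the median gene and 2 below it, with a median of 0.44. More than 2-fold above were 3 genes, against 5.59% of all genes. They were haem oxygenases, which open the haem ring: HO1 at 1.17, HO3 at 1.09 and HO4 at 1.08. The remaining haem oxygenase, HO2, was at 0.44. HO1 had 88.8 RPM in ribo-seq, against 78.3 RPM in mRNA-seq, whereas HO3 and HO4 had at most 2.08 RPM in ribo-seq, against 1.87 RPM in mRNA-seq. The linear intervals of HO3 (0.831 to 1.49) and HO4 (0.760 to 1.64) were wide and included 1, which is equal RPM. Both lay above the 0.446 of the median gene. UPM1, which leads to sirohaem, was lowest at -0.67.

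**Figure D5:**
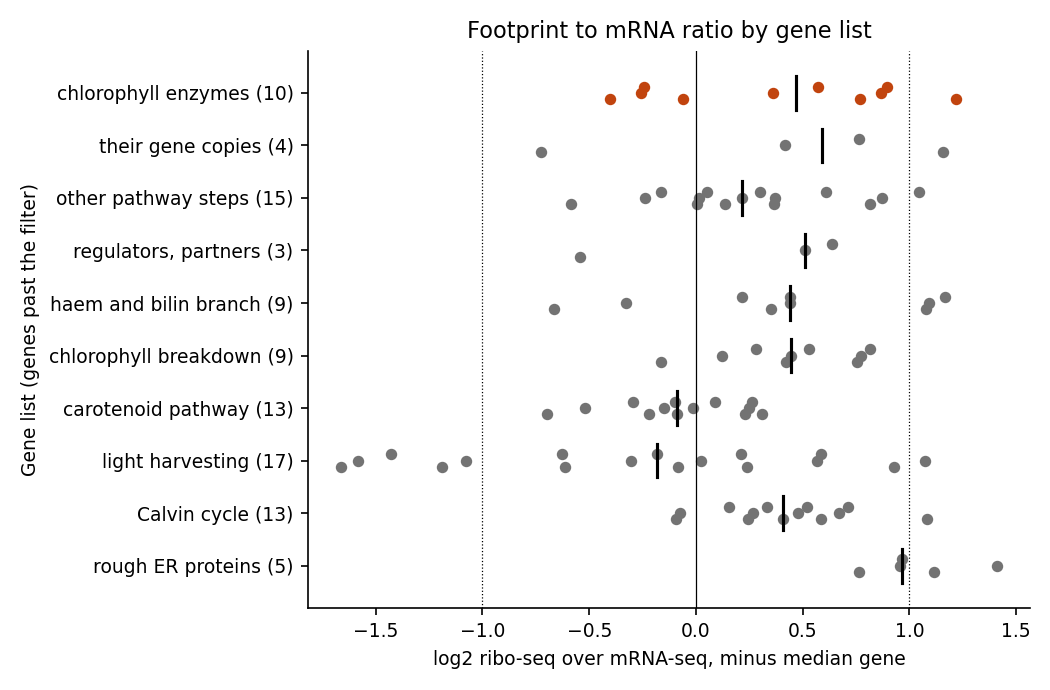
Log2 ratio of MBP ribo-seq over MBP mRNA-seq, minus that of the median gene, for each gene of 10 lists, with 1 point per gene past the filter (number in brackets), a bar at each list's median and dotted lines at a 2-fold difference. The chlorophyll enzymes, with a median of 0.47, lie between -0.40 and 1.22, and light-harvesting genes reach furthest to the left at -1.66.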

How the data were processed

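Values came from 1 MBP ribo-seq and 1 MBP mRNA-seq library. The authors aligned reads with TopHat 2.0 under default settings, took features from TAIR10 and assigned reads with bedtools 2.23.0 at an overlap of at least 80%; the handling of strands is not given in the sources used here. The study describes leaving out reads with several positions for mRNA-seq, and whether this covers these libraries is not given in the sources used here. The deposited values are RPM per isoform for exon, 5' UTR and 3' UTR. The deposited mRNA-seq exon column sums to more than the RPM scale allows because a read counts for each isoform it overlaps, and was treated as a signal on the RPM scale. Each table has a further column whose name matches no sample label, 3 in all, and these were not used.

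The exon values behaved as coding sequence. RPM values were whole multiples of 1 read: 100% of values up to 10000 reads came out whole within 0.1 reads. These steps gave the depth, reads per gene and intervals, so precision is set by reads per gene. For each gene the isoform of highest mean exon value was taken. The ratio used a pseudocount of 1 RPM and a mean of at least 1 RPM. The pseudocount draws low genes toward equal RPM in both libraries, which is above the median gene. With 1 library per assay no test between conditions was possible, and a 2-fold limit was used. A binomial test on the reads, which compares these libraries only, called 596 of 16879 genes higher and 15209 lower in ribo-seq. Gene models and coding lengths were those of TAIR10.1, which matched 99.2% of the genes, and chromosome positions are of that assembly. Genes named were all members, their 5 copies and, in the other lists, the highest and the lowest gene, with those past 2-fold as well in the lists of further steps, regulators, haem and bilin branch and breakdown. HO2 and the LHCB1 copies as a group were added after their values were seen. The members and lists themselves were chosen with earlier results of these data known. Analyses ran in Python 3.11.15 with scipy 1.17.1, statsmodels 0.14.6, Biopython 1.88, pandas 2.3.3 and numpy 2.4.6, and were tested on simulated data. Alternatives covered pseudocount, filter, scaling, isoform, UTR reads, coding length and the isoform segments of CRD1 and CHLM; these segments were chosen after seeing the data.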

Additional observations from a re-analysis of the deposited data

How the results depend on the processing

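The members' median stayed above the median gene under all 9 alternatives to the ratio, between 0.071 and 0.62. It was 0.62 with a pseudocount of 0.1 RPM, 0.14 with 5 RPM, 0.071 with no filter on low values and 0.59 with each library rescaled to its exon sum, and moved by less than the counting error with a filter of 10 RPM, with isoform 1, with isoforms summed, with UTR reads added and against the genes of similar coding length. These settings moved the median of all genes itself, by -0.16, 0.34, 0.40 and 0.61. The number of members more than 2-fold from the median gene was 3 (PORC, CHLI1 and GUN4) with 0.1 RPM, 0 with 5 RPM and with no filter, and 2 (PORC and CHLI1) with rescaling. It was 0 at a 4-fold limit, and the binomial test against the library depths called 10 members, 1 higher and 9 lower in ribo-seq. CHLD moved above the median gene at 0.088 with 0.1 RPM, at 0.063 with rescaling, at 0.085 with UTR reads added and at 0.35 against genes of similar length, where CHLH was at 0.42. CRD1 moved below it, at -0.034, with no filter. Beyond the shift of the median gene, the cause was not tested. Without PORB, the 5' UTR share was 0.239% in ribo-seq and 1.96% in mRNA-seq, and the 3' UTR share was 0.0200% in ribo-seq and 7.17% in mRNA-seq. Footprint levels per kb of 28-base words found once were 378.6 RPM per kb for CRD1 and 37.8 RPM per kb for HEMA1, and are higher by construction, since a sequence has fewer words than bases. No paired analysis was possible because each assay had 1 library. The UTR shares of single members rest on few footprint reads, and the members' ratios on at least 2285.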

Other observations

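Genes that act on chlorophyll after its synthesis were described in the same way. Of 10 genes of chlorophyll breakdown and of chlorophyll b conversion, 9 passed the filter; 8 of these lay above the median gene and 1 below it, with a median of 0.44. NOL, a chlorophyll b reductase, was highest with 20.3 RPM in ribo-seq, against 23.0 RPM in mRNA-seq, at 0.82. NYC1, the other chlorophyll b reductase, was lowest with 89.2 RPM in ribo-seq, against 199 RPM in mRNA-seq, at -0.16. The 13 genes of the carotenoid pathway, whose products share the photosystems with chlorophyll, had a median of -0.09, with 5 above the median gene and 8 below it and values from -0.70 for BCH1 to 0.31 for BCH2.

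The 17 light-harvesting proteins, which bind chlorophyll, had a median of -0.18. More than 2-fold below the median gene lay 5 of them, all copies of LHCB1, against 11.8% of all genes. LHCB1.2 was lowest, with 35.4 RPM in ribo-seq, against 228 RPM in mRNA-seq, at -1.66, and LHCB2.3 was highest at 1.08. Of the 17 genes, 8 shared more than 10% of their 28-base words with other places in the genome, up to 58.4%, so their reads could be split between copies. The other 9 had a median of -0.09, with 4 above the median gene and 5 below it. The 13 Calvin cycle genes, also imported into the chloroplast, had a median of 0.41, with GAPA2 lowest at -0.09 and RPI3 highest at 1.08. The 5 proteins of the rough endoplasmic reticulum, which are made on its membrane, had a median of 0.97, from 0.76 for SHD to 1.41 for PDIL1-1.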
